A study of Mus musculus with 20 samples.

Results

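The genes of 9 proteins that the liver secretes in response to metabolic state were followed in mouse liver: Fgf21, Gdf15, Enho, Fst, Inhbe, Angptl4, Angptl8, Igfbp1 and Igfbp2. They were taken by symbol from the deposited count table, in which all 9 had an intact row, among 23993 intact rows of 35504. All 9 also passed the filter on low counts and were among the 10207 genes tested. RNA had been sequenced from the livers of 20 individual female mice, 5 in each of 4 groups. The groups were vehicle diet without a wheel (Con.Sed), vehicle diet with voluntary wheel running (Con.VWR), a diet with oral combined contraceptives (OC) without a wheel (OC.Sed), and the OC diet with wheel running (OC.VWR). The strain, the age, the hormones in the diet, their dose, the length of treatment, the feeding state and the time of day at dissection are not given in the sources used here.

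Hormones made by the liver in this way are called hepatokines. FGF21 is made in fasting, under the control of the fatty acid receptor PPARA, and under cellular stress through the transcription factor ATF4, and it acts on cells that carry an FGF receptor together with the co-receptor beta-Klotho. GDF15 is a stress-induced hormone that lowers food intake through a receptor in the hindbrain, and adropin, the product of Enho, is a small secreted peptide tied to energy balance. Follistatin, from Fst, neutralises activins, and Inhbe encodes the subunit of activin E, which is made mainly by hepatocytes. ANGPTL4 and ANGPTL8 restrain lipoprotein lipase, the former mostly in fasting and the latter after feeding. IGFBP1 and IGFBP2 bind insulin-like growth factors in plasma, and insulin lowers IGFBP1.

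Promoter windows, from 250 bases before to 50 bases after a transcription start, were held by the RefSeq table (GRCm38.p6) for 6 of the 9 genes, as 8 windows. Enho, Fst and Angptl4 were not among them. The windows were searched on both strands for TGATGNAA, the core of the CEBP-ATF element through which ATF4 acts, AGGNCAAAG, part of the element of PPARA and related receptors, TGACGTCA, the cAMP response element, GTAAACA, the forkhead motif, and CAAAACAA, the insulin response sequence described for IGFBP1. No match overlapped another. The first motif lay in the Fgf21 window (chr7:45615441-45615740, minus strand), the Inhbe window (chr10:127351799-127352098, minus strand) and the Angptl8 window (chr9:21835260-21835559, plus strand), and in 3.97% of all 32851 windows of that length. The insulin response sequence lay in the Igfbp1 window (chr11:7197537-7197836, plus strand) and in 2.51% of all windows. The other 3 motifs, held by 2.04%, 1.79% and 3.65% of all windows in the order given, matched none of the 8 windows, and neither the 2 windows of Gdf15 nor the 2 of Igfbp2 held any of the 5. The 4 windows are printed because they hold the matches, each 5′ to 3′ in the direction of its gene, with the match in capitals.
Fgf21: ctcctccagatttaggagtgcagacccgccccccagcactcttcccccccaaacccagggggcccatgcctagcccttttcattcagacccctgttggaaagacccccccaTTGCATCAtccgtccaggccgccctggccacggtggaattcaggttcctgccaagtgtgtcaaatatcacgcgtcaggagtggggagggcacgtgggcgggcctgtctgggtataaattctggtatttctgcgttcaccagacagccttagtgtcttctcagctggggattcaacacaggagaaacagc
Inhbe: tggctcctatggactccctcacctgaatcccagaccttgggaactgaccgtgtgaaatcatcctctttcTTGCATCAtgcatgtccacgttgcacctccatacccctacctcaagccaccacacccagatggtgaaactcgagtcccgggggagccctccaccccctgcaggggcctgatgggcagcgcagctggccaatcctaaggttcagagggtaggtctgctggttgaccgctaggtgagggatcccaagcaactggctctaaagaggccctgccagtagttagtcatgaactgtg
Angptl8: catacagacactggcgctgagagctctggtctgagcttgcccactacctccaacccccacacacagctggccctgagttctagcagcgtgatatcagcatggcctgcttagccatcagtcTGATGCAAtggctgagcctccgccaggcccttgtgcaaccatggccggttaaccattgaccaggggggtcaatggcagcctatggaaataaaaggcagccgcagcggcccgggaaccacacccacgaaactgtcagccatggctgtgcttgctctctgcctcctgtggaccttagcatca
Igfbp1: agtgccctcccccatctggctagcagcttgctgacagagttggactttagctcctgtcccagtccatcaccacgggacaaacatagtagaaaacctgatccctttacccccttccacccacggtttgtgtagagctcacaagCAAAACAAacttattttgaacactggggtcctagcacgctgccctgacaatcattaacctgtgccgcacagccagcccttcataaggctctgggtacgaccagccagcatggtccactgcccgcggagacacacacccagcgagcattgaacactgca
The matches began 139 bases before the start of Fgf21, 181 before that of Inhbe, 130 before that of Angptl8 and 108 before that of Igfbp1. These starts are those of RefSeq. The Inhbe window lies wholly inside the GENCODE gene (127348857 to 127354411), so its RefSeq start is downstream of the start of that gene. A match describes letters and is not a measured binding site.

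Total counts over the intact rows ran from 10883936 to 16134618 per library. CPM below are counts scaled to the size of the library after TMM normalization, errors are the SD of 5 mice, and p-values are from edgeR's quasi-likelihood test with Benjamini-Hochberg adjustment over all 10207 genes, with a threshold of 0.05. Replicate 2 of the Con.Sed group stood apart on the second principal component (57.1, against -18.6 to 11.1 in the other 19 libraries). Counts of Mb, the muscle gene for myoglobin, reached 28.0, 34.3 and 8.94 CPM in Con.VWR replicate 2, OC.Sed replicate 3 and OC.VWR replicate 5, against at most 0.468 CPM elsewhere. The summed level of 9 measured hepatocyte markers (of 12 listed) was 152314 to 210205 CPM on vehicle and 91613 to 130703 CPM on OC. A sum weighs each marker by its level and need not hold for each of them. Tat, on this list, rose on OC averaged over activity (log2 fold change 0.68, adjusted p = 0.00125). Markers of stellate cells and fibroblasts (9 measured of 12) summed to 592.8 to 951.0 CPM on vehicle and 393.3 to 668.9 CPM on OC. For lymphocytes, 7 markers (of 12) summed to 11.4 to 16.3 CPM in Con.Sed and 7.47 to 10.2 CPM in Con.VWR livers. On OC they summed to 5.54 to 10.6 CPM, a range that held all Con.VWR livers. For Kupffer cells (8 of 11), endothelium (9 of 12) and neutrophils (4 of 5) the ranges of the diets overlapped widely. Bile duct markers (8 of 8) had medians of 93.3 and 73.9 CPM in Con.Sed and Con.VWR livers. In OC.Sed and OC.VWR livers their medians were 117.3 and 136.4 CPM. They reached 155.7 CPM in Con.Sed replicate 2 and 67.4 to 101.0 CPM in the other vehicle livers, against 88.3 to 196.4 CPM on OC. Adipocyte markers (4 of 6) had medians of 47.4 and 28.0 CPM in Con.Sed and Con.VWR livers and of 8.45 and 10.5 CPM in OC.Sed and OC.VWR livers, with ranges of 8.61 to 58.8 CPM on vehicle and 5.76 to 65.5 CPM on OC, the highest in OC.VWR replicate 2. Pancreatic acinar markers (3 of 7 measured, Amy2a5 at 0 in every library) were at 18.4 CPM or less, and no erythroid marker had an intact row. In whole liver, fewer cells of a type and less RNA per cell cannot be told apart, and the part of these shifts in the results below was not tested.

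Per kilobase of annotated exon, Igfbp2 had the highest level in Con.Sed livers, at 613.5 ± 104.6 CPM per kb, followed by Igfbp1 at 287.0 ± 150.3 and Angptl8 at 162.5 ± 154.4. Angptl4 (73.1 ± 9.98) and Gdf15 (56.4 ± 54.9) came next and did not differ beyond their spread, nor did Igfbp1 and Angptl8. Enho stood at 23.7 ± 5.92, Fgf21 at 13.5 ± 13.0, Inhbe at 10.5 ± 3.56 and Fst at 0.931 ± 0.570 CPM per kb. Fgf21 and Inhbe did not differ beyond their spread in Con.Sed livers. There Fgf21 was at 36.5 CPM per kb in replicate 2 and at 5.67 to 10.2 in the other mice. The level of Inhbe rests on 5319 bases of pooled annotated exon. In OC.Sed livers Fgf21 (4.06 ± 1.77) lay below Inhbe (9.86 ± 3.84). Gdf15 (110.8 ± 82.7) had a mean above that of Angptl4 (66.4 ± 22.4) in these livers, a difference within the spread of Gdf15. Reads behind these levels ran from 23 counts for Fgf21 in 1 OC.Sed library to 16581 for Igfbp2 in 1 Con.Sed library.

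**Figure D1:**
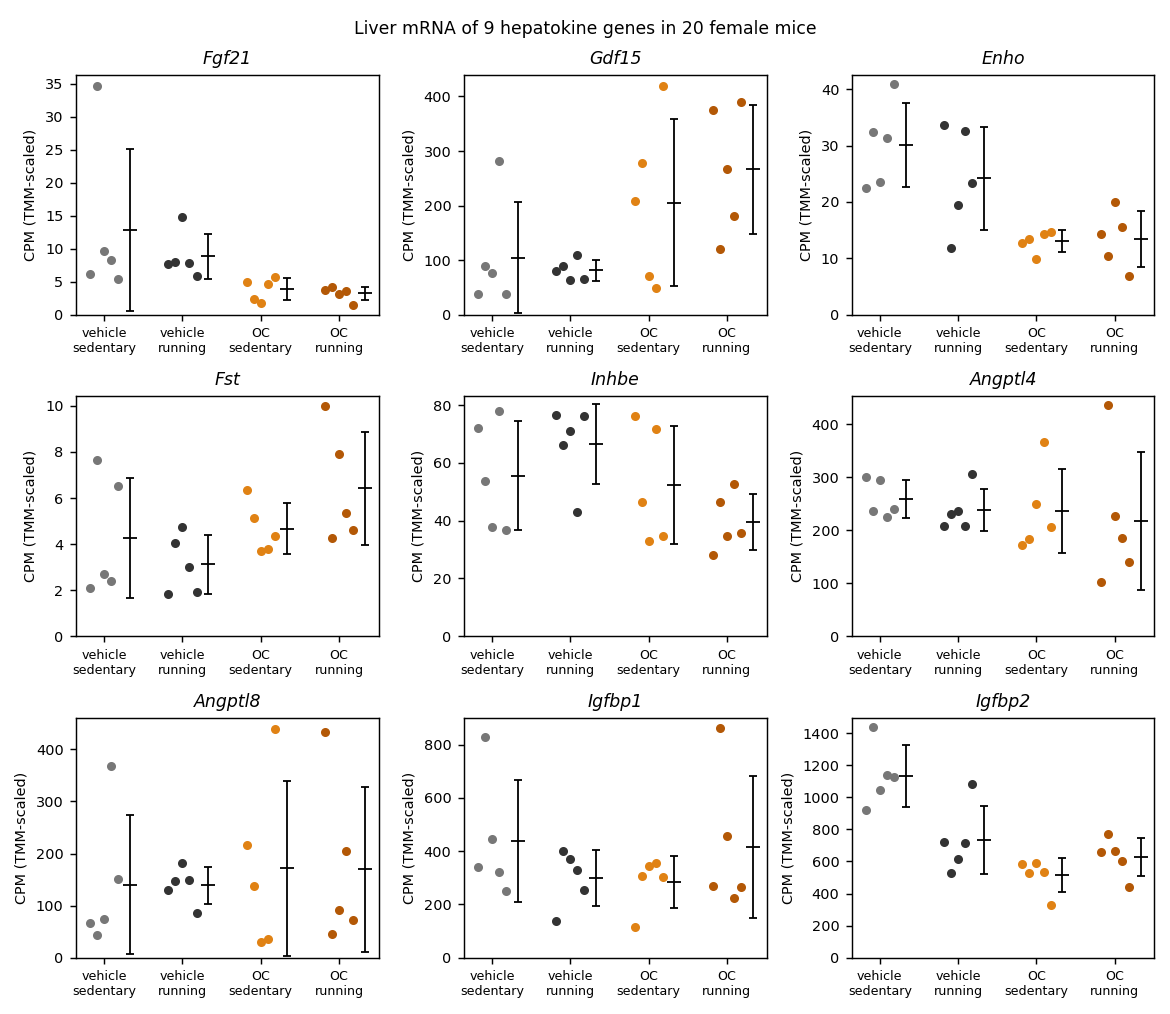
Level of each gene in CPM (vertical axes, each from 0) in the 20 mice, 1 point a mouse, by group; the bar beside the points is the mean with the SD of 5 mice. Fgf21 and Enho lie lower on OC under both activities and Igfbp2 in sedentary mice, and Angptl8 spreads widely in 3 of the 4 groups.

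The contraceptive diet was first compared with vehicle in sedentary mice. Of the 9 genes 3 fell (Fgf21, Enho and Igfbp2) and 0 rose. Among all genes 16.3% were called, 7.2% lower and 9.11% higher. The median log2 fold change was -0.14 over the 9 genes and -0.01 over all genes tested. Levels of 2 genes, Enho and Igfbp2, did not overlap between the groups, as for 11% of all genes.

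In running mice 2 of the 9 genes fell (Fgf21 and Enho) and 1 rose (Gdf15), where 13.2% of all genes were called, 6.06% lower and 7.09% higher. The median was -0.13 over the 9 genes and 0.01 over all. Fgf21 and Gdf15 did not overlap between these groups, as for 10.4% of all genes. Averaged over activity, with 10 OC and 10 vehicle libraries, Fgf21, Enho and Igfbp2 fell and Gdf15 rose, 4 of 9 genes where 22.9% of all genes were called (11% lower and 11.9% higher). No gene of the 9 was without overlap between all OC and all vehicle mice, against 2.54% of all genes. The comparisons share libraries, so their counts are not independent of each other.

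**Figure D2:**
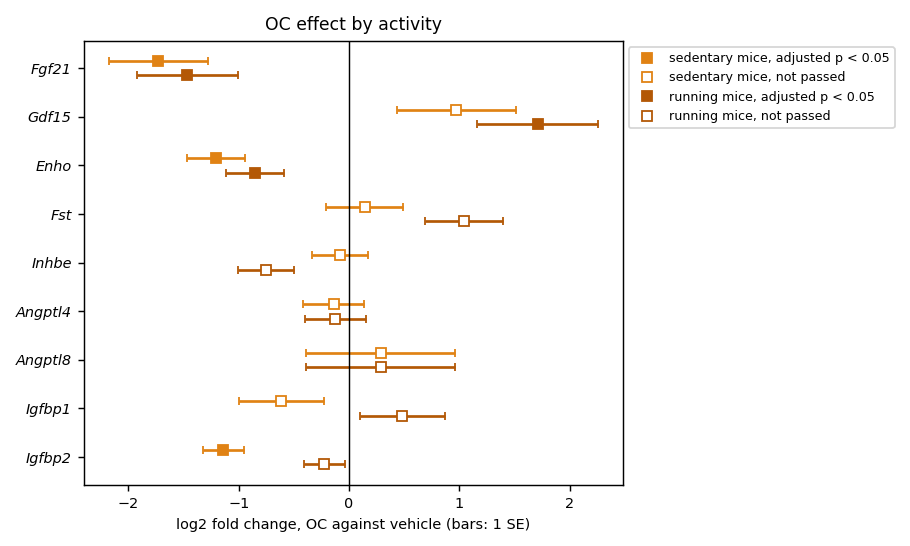
Log2 fold change of OC against vehicle (horizontal axis; bars are 1 SE) for each gene in sedentary and in running mice, from edgeR; filled squares passed at an adjusted p under 0.05. Fgf21 and Enho fell under both activities (-1.73 and -1.47, -1.21 and -0.85), Igfbp2 fell in sedentary mice (-1.14) and Gdf15 rose in running mice (1.71).

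Fgf21 (chromosome 7, 45613886 to 45615490, minus strand, ENSMUSG00000030827) was at 6.21, 34.7, 9.67, 8.33 and 5.39 CPM in the 5 Con.Sed mice, in order of replicate. In OC.Sed mice it was at 4.88, 2.41, 1.77, 4.61 and 5.66 CPM. Only OC.Sed replicate 5 reached into the vehicle range, and Con.Sed replicate 2 lay far above all others. The log2 fold change was -1.73 (adjusted p = 0.0123, SE 0.45), a fitted fall of 3.32-fold. Without Con.Sed replicate 2, the library that stood apart on the second component, it was -0.94 with adjusted p = 0.0496.

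In running mice Fgf21 was at 7.66, 7.98, 14.8, 7.79 and 5.86 CPM on vehicle and 3.75, 4.14, 3.13, 3.51 and 1.52 CPM on OC. Every OC mouse lay below every vehicle mouse. The log2 fold change was -1.47 (adjusted p = 0.0368, SE 0.46). Leaving out OC.VWR replicate 1, 3, 4 or 5 ended that call (adjusted p = 0.0665, 0.0780, 0.0580 and 0.0784), as did leaving out Con.VWR replicate 1, 3 or 4 (0.0524, 0.115 and 0.0578). It did not hold either without the 3 libraries with Mb (adjusted p = 0.0867) and with library totals as the only scaling (adjusted p = 0.0506). Averaged over activity the fall was 3.03-fold (log2 fold change -1.60, adjusted p = 0.000916, SE 0.32), and the OC effect did not pass as different between activities (interaction 0.26, adjusted p = 0.858, SE 0.63).

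Receptors and signalling genes of the FGF21 pathway were described from a list of 13, all tested. In this and all lists below the share of all genes to set beside a count is 11% lower and 11.9% higher, averaged over activity. Of the 13 genes 4 fell and 0 rose, with a list median of -0.18 against 0.00 over all genes, and none was called in sedentary mice alone. Klb, which encodes beta-Klotho, averaged 39.1 ± 9.37 and 42.8 ± 5.58 CPM in Con.Sed and Con.VWR mice and 30.9 ± 3.69 and 23.7 ± 2.94 CPM in OC.Sed and OC.VWR mice, a fall averaged over activity (log2 fold change -0.60, adjusted p = 0.000225, SE 0.10). Fgfr4, the main FGF receptor of hepatocytes, fell by 0.43 on the log2 scale (adjusted p = 0.00152, SE 0.09). Egr1, an immediate early gene induced by growth factors, had a log2 fold change of -1.76 (adjusted p = 0.00126, SE 0.36), and Fgf1 one of -0.44 (adjusted p = 0.0211, SE 0.13), a call lost with library totals as the only scaling (adjusted p = 0.0654).

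PPARA targets, 15 tested of 31 listed, held 10 genes that fell and 1 that rose (Creb3l3, a hepatic transcription factor that acts with PPARA on Fgf21, whose call was lost under 14 of 28 alternatives), with a median of -0.73, where 11% of all genes fell and 11.9% rose. The others listed had no intact row, Cpt1a among them. Ppara itself fell by 0.54 on the log2 scale (adjusted p = 0.00534, SE 0.13). Acaa1b, a peroxisomal thiolase, had a log2 fold change of -1.04 (adjusted p = 2.50e-06, SE 0.12), Acot4, an acyl-CoA thioesterase, of -1.31 (adjusted p = 5.17e-06, SE 0.16) and its relative Acot3 of -2.11 (adjusted p = 5.33e-05, SE 0.32). Atf4 target and stress genes showed no common direction: of 15 tested (25 listed) 2 rose and 3 fell, with a median of -0.09. Atf4 mRNA was at 107.7 ± 15.7 and 105.0 ± 5.65 CPM in Con.Sed and Con.VWR mice and at 104.5 ± 10.8 and 114.6 ± 11.8 CPM in OC.Sed and OC.VWR mice (log2 fold change 0.04, adjusted p = 0.715, SE 0.07). Its targets Ddit3 (log2 fold change -0.27, adjusted p = 0.120, SE 0.12) and Trib3 (0.01, adjusted p = 0.983, SE 0.18, with a sign that varied when single libraries were left out) did not pass. Ddit4, an inhibitor of mTORC1, rose by 1.65 on the log2 scale (adjusted p = 0.00122, SE 0.34), while Nupr1, a stress-induced nuclear protein, fell by 1.32 (SE 0.25, adjusted p = 0.000491), Vldlr fell as given below and Atf5 fell by 0.81 (adjusted p = 0.000657, SE 0.15). Asns, the asparagine synthetase gene, passed at a low level, with group means of 0.326 to 1.36 CPM.

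Gdf15 (chromosome 8, 70629393 to 70632456, minus strand, ENSMUSG00000038508) was at 37.7, 88.6, 75.9, 281.96 and 38.2 CPM in Con.Sed mice and at 208.1, 278.9, 70.4, 49.3 and 419.4 CPM in OC.Sed mice. In the OC group 3 mice stood above 200 CPM and the others lay among the vehicle mice. Con.Sed replicate 4 lay within the range of those 3 OC mice. The log2 fold change of 0.97 (SE 0.54) did not pass (adjusted p = 0.227). It was 1.77 without Con.Sed replicate 4, with adjusted p = 0.0217.

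Under wheel running the vehicle mice lay close together, with Gdf15 at 79.3, 89.4, 64.04, 110.1 and 64.7 CPM, and the OC mice lay above all of them at 375.2, 120.1, 267.03, 180.2 and 389.7 CPM. The log2 fold change was 1.71 (adjusted p = 0.0424, SE 0.55). limma voom did not make this call (adjusted p = 0.0567), nor did the fit without the 3 libraries with Mb (adjusted p = 0.0996). Leaving out any Con.VWR library lost it too (adjusted p = 0.0861, 0.0640, 0.0937, 0.0606 and 0.0819 for replicates 1 to 5), as did leaving out OC.VWR replicate 1, 3 or 5 (adjusted p = 0.104, 0.0768 and 0.0864) or OC.Sed replicate 1 (adjusted p = 0.0510). Averaged over activity Gdf15 rose 2.53-fold (log2 fold change 1.34, adjusted p = 0.0145, SE 0.38), and this held under all 28 alternatives, with log2 fold changes of 1.12 to 1.74. The interaction was 0.74 (adjusted p = 0.635, SE 0.75).

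Enho (chromosome 4, 41638144 to 41640324, minus strand, ENSMUSG00000028445) was at 22.4, 32.3, 23.5, 31.3 and 40.9 CPM in Con.Sed mice and at 12.8, 13.4, 9.83, 14.4 and 14.7 CPM in OC.Sed mice. The OC mice lay close together and below every vehicle mouse. The log2 fold change was -1.21 (adjusted p = 0.00413, SE 0.26). Running mice had 33.6, 11.9, 19.4, 32.5 and 23.4 CPM on vehicle and 14.3, 10.5, 19.99, 15.5 and 6.82 CPM on OC, with overlap through Con.VWR replicate 2 and OC.VWR replicate 3.

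In these running mice the log2 fold change of Enho was -0.85 (adjusted p = 0.0357, SE 0.26), a call lost when only the 2 groups were fitted (adjusted p = 0.0732). Leaving out Con.VWR replicate 1, 4 or 5 gave adjusted p = 0.0980, 0.101 and 0.0526. With OC.VWR replicate 1, 2 or 5 left out, it was 0.0668, 0.0643 and 0.0694. Averaged over activity Enho fell 2.04-fold (log2 fold change -1.03, adjusted p = 0.000367, SE 0.19), and the interaction was 0.35 (adjusted p = 0.646, SE 0.37). Exons of Enho overlap those of Dnaic1 on the opposite strand. The strand setting of the counting is not given in the sources used here, so reads of the 2 genes may not have been told apart. Fst has the same limit, with an antisense gene, Gm47040, over its exons.

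Igfbp2 (chromosome 1, 72824503 to 72852474, plus strand, ENSMUSG00000039323) was at 918.1, 1442, 1045, 1137 and 1124 CPM in Con.Sed mice and at 585.7, 531.1, 589.3, 535.1 and 331.5 CPM in OC.Sed mice. No OC mouse reached the vehicle range, and the log2 fold change was -1.14 (adjusted p = 0.000366, SE 0.19), which held under all 29 alternatives (-1.21 to -1.01). Running vehicle mice were at 724.4, 529.9, 613.7, 715.8 and 1083 CPM, so that 4 of 5 lay below the whole Con.Sed group. Running OC mice, at 661.3, 772.3, 662.9, 601.8 and 442.7 CPM, overlapped them.

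On vehicle the running effect on Igfbp2 was -0.63 (SE 0.19), which was the smallest adjusted p of the 9 genes in that comparison but did not pass (adjusted p = 0.228, unadjusted p = 0.00301). With running the OC effect was -0.22 (adjusted p = 0.462, SE 0.19), and -0.04 without Con.VWR replicate 5 and -0.14 without OC.VWR replicate 5. The interaction of 0.92 (SE 0.26) did not pass in edgeR (adjusted p = 0.201) and did in DESeq2 (adjusted p = 0.0306), so whether the OC effect on Igfbp2 differed with running depended on the test. Averaged over activity Igfbp2 fell 1.60-fold (adjusted p = 0.000740).

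Igfbp1 (chromosome 11, 7197782 to 7202546, plus strand, ENSMUSG00000020429) had no change that passed. Its levels were 340.6, 828.2, 446.8, 321.3 and 251.5 CPM in Con.Sed mice and 115.9, 307.3, 343.96, 355.8 and 304.8 CPM in OC.Sed mice. Con.VWR mice had 137.9, 401.7, 369.4, 327.9 and 254.4 CPM and OC.VWR mice 269.8, 864.1, 457.4, 225.8 and 264.01 CPM. Single mice set the extremes of each group, replicate 2 in Con.Sed and OC.VWR and replicate 1 in OC.Sed and Con.VWR. The log2 fold change of OC was -0.62 (adjusted p = 0.290, SE 0.39) in sedentary and 0.48 (adjusted p = 0.440, SE 0.38) in running mice, and the interaction was 1.10 (adjusted p = 0.298, SE 0.54). These values moved when single libraries were left out, with no change of sign. They ran from -0.77 to -0.25 in sedentary and 0.03 to 0.64 in running mice, and from 0.64 to 1.26 for the interaction. Without Con.Sed replicate 2 the OC effect on Igfbp1 in sedentary mice was -0.25 and the interaction 0.73. Without OC.VWR replicate 2 the OC effect in running mice was 0.03 and the interaction 0.64. Without Con.VWR replicate 1 the OC effect in running mice was 0.29.

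Of 13 tested genes of the IGF axis (16 listed) 4 fell and 0 rose, with a median of -0.12. Igfbp3, the main carrier of IGF in plasma and made in liver largely outside hepatocytes, fell by 0.78 on the log2 scale (adjusted p = 0.000151, SE 0.13). Stellate cell markers had the ranges given above, and endothelial markers overlapped widely between the diets. The part of either in this fall was not tested. Igf1 had a log2 fold change of -0.27 (adjusted p = 0.0218, SE 0.08) and Insr, the insulin receptor gene, of -0.31 (adjusted p = 0.0178, SE 0.09). Both calls were lost with library totals as the only scaling (adjusted p = 0.135 and 0.0984). Igf2 also fell, at group means of 0.541 to 1.40 CPM. Igfbp4 did not pass, at group means of 2376 to 2659 CPM (log2 fold change 0.00, adjusted p = 0.989, SE 0.07). In a list of insulin, FOXO1 and fasting genes (14 tested of 20) 2 rose and 3 fell, with a median of -0.06. Tat, the fasting-induced tyrosine aminotransferase, rose by 0.68 on the log2 scale (adjusted p = 0.00125, SE 0.14), as did Irs1, an insulin receptor substrate gene, at 0.36. Its relative Irs2 fell by 0.69 and Txnip, an inhibitor of glucose uptake, by 0.69 (adjusted p = 0.0297 and 0.0202). Foxo1 did not pass (log2 fold change -0.06, adjusted p = 0.764, SE 0.11, and 0.06 with library totals as the only scaling). Pck1 had a displaced row.

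Fst (chromosome 13, 114452290 to 114458951, minus strand, ENSMUSG00000021765) was low throughout, at 25 to 136 counts per library. In sedentary mice it was at 2.07, 7.65, 2.68, 2.41 and 6.54 CPM on vehicle and 6.34, 5.14, 3.69, 3.80 and 4.34 CPM on OC. The OC mice lay inside the wide vehicle range (log2 fold change 0.14, adjusted p = 0.822, SE 0.35). In running mice it was at 1.84, 4.03, 4.75, 3.02 and 1.93 CPM on vehicle and 10.01, 4.28, 7.91, 5.34 and 4.63 CPM on OC, and 2 of the OC mice lay below the highest vehicle mouse.

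The OC effect on Fst in running mice was a log2 fold change of 1.04 (SE 0.35) at adjusted p = 0.0533, just outside the threshold. It passed in DESeq2 (adjusted p = 0.0252), limma voom (0.0454), limma voom with sample weights (0.0125), with library totals as the only scaling (0.0301) and with only the 2 groups fitted (0.0375). It also passed without any of 7 single libraries: Con.Sed replicate 1, 2, 4 or 5 (adjusted p = 0.0435, 0.0303, 0.0491 and 0.0477), Con.VWR replicate 3 (0.0408) and OC.VWR replicate 2 or 5 (0.0350 and 0.0497). Averaged over activity it was at 0.59 (adjusted p = 0.0914, SE 0.25), and passed at 0.75 without Con.Sed replicate 2 (adjusted p = 0.0240), at 0.70 with library totals as the only scaling (0.0396) and in limma voom (0.0440), and at 0.85 in limma voom with sample weights (0.00439). The interaction was 0.90 (adjusted p = 0.343, SE 0.50).

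Inhbe (chromosome 10, 127348857 to 127354411, minus strand, ENSMUSG00000047492) was at 71.99, 53.8, 37.7, 77.8 and 36.8 CPM in Con.Sed mice and at 76.3, 46.3, 33.1, 71.8 and 34.7 CPM in OC.Sed mice. Both groups had high and low mice in like numbers, and the log2 fold change was -0.09 (adjusted p = 0.851, SE 0.25). In running mice it was at 76.8, 66.1, 71.00, 42.9 and 76.3 CPM on vehicle and 28.2, 46.4, 34.7, 52.7 and 35.6 CPM on OC, and only Con.VWR replicate 4 lay in the OC range.

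For Inhbe in running mice the log2 fold change was -0.75 (SE 0.25) at adjusted p = 0.0541. DESeq2 (0.0261) and the fit of only the 2 groups (0.0164) called it, as did the main test without OC.Sed replicate 1 or 3 (0.0431 and 0.0423), OC.VWR replicate 2 or 4 (0.0482 and 0.0400), Con.Sed replicate 4 (0.0488) or Con.VWR replicate 4 (0.0382). Averaged over activity it was at -0.42 (adjusted p = 0.0972, SE 0.18), and passed at -0.52 without OC.Sed replicate 1 (adjusted p = 0.0449) and at -0.48 in limma voom with sample weights (0.0488). The interaction of -0.67 (SE 0.36) did not pass (adjusted p = 0.332). Of 12 tested genes of the activin axis (20 listed) 1 fell, Bambi, a decoy receptor (log2 fold change -0.45, adjusted p = 0.0347, SE 0.15, a call lost under 11 of 28 alternatives), and the list median was -0.16. Among the lost calls of Bambi were those without OC.Sed replicate 1, 2, 3 or 5 (adjusted p = 0.0590, 0.0548, 0.05005 and 0.0574), OC.VWR replicate 4 or 5 (0.0584 and 0.0567), Con.Sed replicate 2 (0.0638) and Con.VWR replicate 3 or 5 (0.0666 and 0.0684). Acvr2b, an activin receptor, was at -0.34 (adjusted p = 0.208, SE 0.19).

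Angptl4 (chromosome 17, 33773750 to 33781830, minus strand, ENSMUSG00000002289) was at 300.04, 235.9, 294.1, 224.6 and 240.05 CPM in Con.Sed mice and at 208.4, 230.7, 235.2, 208.6 and 305.7 CPM in Con.VWR mice. On OC the same gene spread more widely, at 172.1, 183.02, 249.05, 366.8 and 205.03 CPM in OC.Sed mice and at 103.1, 435.6, 226.1, 184.9 and 140.4 CPM in OC.VWR mice. The coefficient of variation was 13.6% and 16.8% in the vehicle groups and 33.7% and 59.7% in the OC groups, a difference that was not tested. The means were close (log2 fold change of OC -0.14, SE 0.28, in sedentary and -0.13, SE 0.28, in running mice; adjusted p = 0.772 and 0.802).

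Angptl8 (chromosome 9, 21835510 to 21837347, plus strand, ENSMUSG00000047822) had the widest spread of the 9 genes. It was at 65.9, 43.5, 73.9, 368.1 and 151.2 CPM in Con.Sed mice and at 216.9, 137.2, 29.2, 35.5 and 439.2 CPM in OC.Sed mice. In running mice it was at 130.8, 146.99, 181.9, 149.1 and 85.4 CPM on vehicle and at 432.9, 46.4, 91.3, 204.03 and 73.2 CPM on OC. Of the 4 groups the Con.VWR mice lay closest together, with a coefficient of variation of 25.3% against 93.8% to 98.2% in the others. The OC effect was 0.29 in both sedentary and running mice (SE 0.67 in each, adjusted p = 0.810 and 0.814), an error too wide to show a change of that size.

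Genes of plasma lipase control were followed in a list of 14, of which 12 were tested. Averaged over activity 3 rose and 5 fell, with a median of -0.23. Apoc2, the activator of lipoprotein lipase, rose from 540.0 ± 227.6 to 1803 ± 293.9 CPM in sedentary and from 445.7 ± 32.5 to 2105 ± 396.4 CPM in running mice (log2 fold change 1.99, adjusted p = 1.76e-09, SE 0.14). Lmf1, a chaperone that lipases need to mature, rose by 0.82 in log2 fold change (adjusted p = 3.21e-08, SE 0.07). Angptl6, a relative of Angptl4, fell by 0.49 (adjusted p = 0.000544, SE 0.09), and Vldlr, a receptor for triglyceride-rich lipoproteins, by 1.55 (adjusted p = 1.09e-06, SE 0.17). Pcsk6, a proprotein convertase, also rose, and Gpihbp1 and Apoc1 also fell. Lpl itself did not pass (log2 fold change -0.52, adjusted p = 0.249, SE 0.32, and -0.11 without Con.Sed replicate 2).

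A list of lipogenic genes under insulin and LXR, which also govern Angptl8, had 15 tested genes of 22. Thrsp rose and Lpcat3, Pnpla3 and Acacb fell (1 and 3 genes), with a median of -0.11. Lpcat3, a phospholipid acyltransferase, fell by 0.35 on the log2 scale (adjusted p = 0.000281, SE 0.06), and Pnpla3, which is strongly induced by feeding, by 2.61 (adjusted p = 0.00446, SE 0.63). Among 20 tested other hepatokines (27 listed) 2 rose and 7 fell, with a median of -0.13, against 11.9% and 11% of all genes. Manf, a secreted protein of the endoplasmic reticulum, and Orm1, an acute phase protein, rose by 0.89 and 0.76 on the log2 scale (SE 0.20 and 0.18, adjusted p = 0.00296 and 0.00420). Dpp4, a peptidase that inactivates incretins, fell by 0.46 (adjusted p = 1.66e-05, SE 0.06). The matricellular Sparcl1 and Hamp, the iron hormone hepcidin, fell by 1.12 and 1.26 (adjusted p = 3.54e-05 and 8.62e-05). In the circadian clock list 2 of 13 tested genes (19 listed) fell, Per3 and Tef, at adjusted p = 0.0476 and 0.0490, calls lost under 18 and 20 of 28 alternatives. All lists are described by their tested members only.

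**Figure D3:**
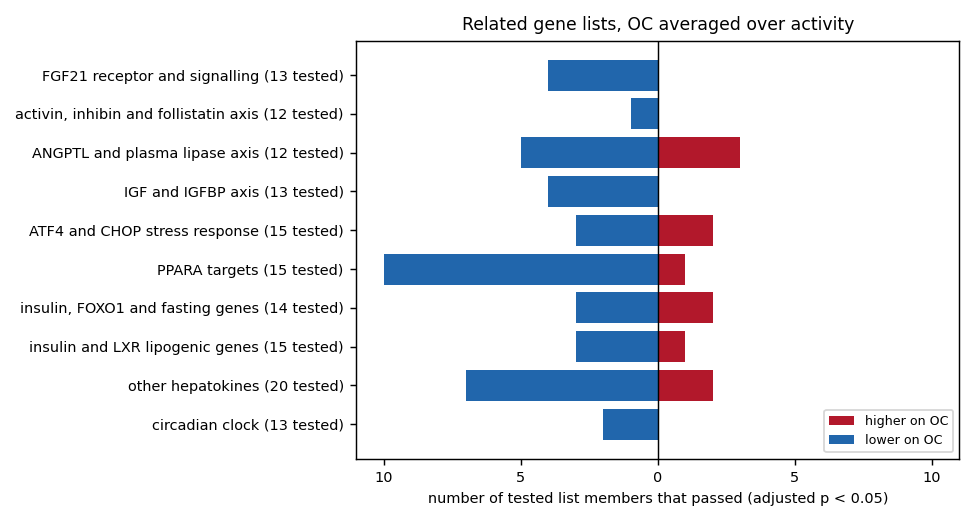
Number of tested genes of each related list that rose (right) or fell (left) on OC averaged over activity, at an adjusted p under 0.05; the number tested stands beside each name. PPARA targets had 10 of 15 genes lower and the activin list 1 of 12.

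Wheel running was the second factor. No gene of the 9 passed on vehicle, on OC or averaged over diet, and edgeR called 0% of all genes in each of these comparisons and in the interaction. Levels of none of the 9 were without overlap on vehicle (2.01% of all genes), on OC (1.06%) or averaged over diet (0%). At an unadjusted p under 0.05 there was 1 of the 9 genes on vehicle (Igfbp2) and 1 in the interaction (again Igfbp2), and 0 on OC and averaged over diet. Among all genes the unadjusted counts were 1414 on vehicle (13.9%), 694 on OC (6.8%), 496 averaged over diet (4.86%) and 1802 in the interaction (17.7%). DESeq2 called 42, 1, 2 and 119 genes in that order, among the 9 only Igfbp2 in the interaction, and limma voom with sample weights called 4 genes in the interaction. The smallest adjusted p of the 9 genes was 0.228 on vehicle, 0.688 on OC and 0.978 averaged over diet.

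Variation between mice of the same group was large for these genes. The within-group SD of log2 CPM was 1.24 for Angptl8, 0.97 for Gdf15, 0.74 for Fgf21, 0.69 for Igfbp1, 0.61 for Fst, 0.48 for Enho, 0.47 for Angptl4, 0.45 for Inhbe and 0.32 for Igfbp2, against a median of 0.23 over all genes tested. Deviations from the group mean were compared between the 36 pairs of genes over the 20 mice, with the deviations permuted within groups (100000 resamples, two-sided). Gdf15 and Angptl4 varied in opposite directions (Pearson r = -0.63, permutation p = 0.00085, adjusted over the 36 pairs 0.0306; Spearman rho = -0.77, permutation p = 0.00053, adjusted 0.0191). Without the 2 mice farthest from the median of Gdf15 r was -0.61. OC.Sed replicate 4 and OC.VWR replicate 2, low in Gdf15, were the highest of their groups in Angptl4.

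No other pair passed the adjustment. Gdf15 and Angptl8 had r = 0.71 and rho = 0.58 (permutation p = 0.0100 and 0.0380, adjusted 0.120 and 0.273, r = 0.58 without the 2 mice). Angptl4 and Angptl8 had r = -0.64 and rho = -0.59 (permutation p = 0.00674 and 0.0207, adjusted 0.120 and 0.273). Without the 2 mice farthest from the median of Angptl4 their r was -0.53. Con.Sed replicate 4, OC.Sed replicate 5 and OC.VWR replicate 1 were the highest of their groups in Angptl8, and the first 2 of these also in Gdf15. Both values of a pair come from the same library.

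**Figure D4:**
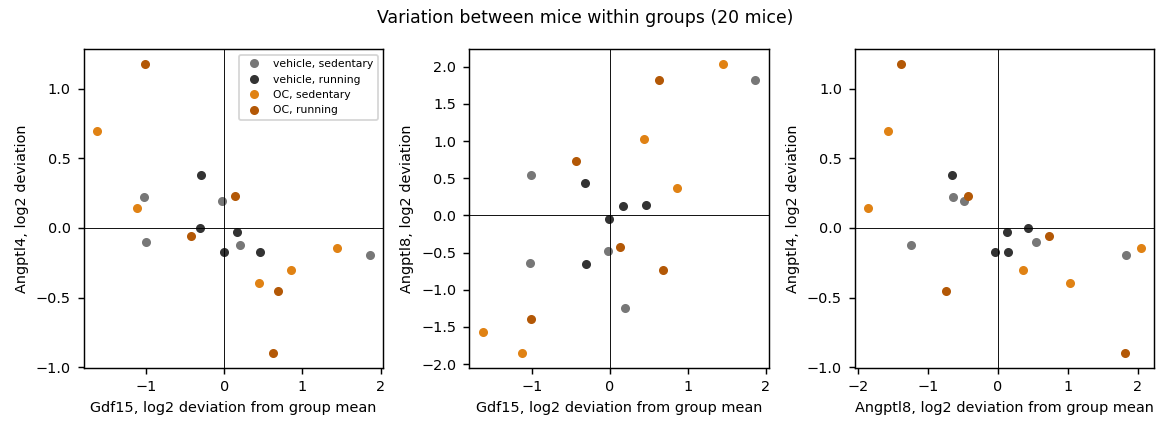
Deviation of each mouse from its group mean in log2 CPM for Gdf15, Angptl4 and Angptl8, as 3 plots of 1 gene against another, coloured by group. Gdf15 and Angptl4 run in opposite directions (r = -0.63).

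As a description, the genes most like each of the 9 in these deviations were sought among 9624 tested genes averaging 1 CPM or more, by Pearson r over the 20 libraries. For Angptl8 they were Mid1ip1, an activator of acetyl-CoA carboxylase (r = 0.86), and Srebf1, the lipogenic transcription factor (r = 0.85). For Gdf15 they were Jund, an AP-1 factor (r = 0.84), and Tmem39a (r = 0.82). The closest for Fgf21 were the kinase gene Dyrk3 (r = 0.85) and Gem, a small GTPase (r = 0.83), and for Igfbp1 Chka, a choline kinase (r = 0.82), and the non-coding Snhg3 (r = 0.80). Angptl4 was closest to Nek7 and Brap (r = 0.88 for both), Fst to Cystm1 (r = 0.92) and Taf12 (r = 0.84), and Inhbe to Tlr5 (r = 0.84) and Paqr7 (r = 0.79). Enho was closest to the apolipoprotein gene Apof (r = 0.81) and to 1110051M20Rik (r = 0.76), and Igfbp2 to Rhbdd3 (r = 0.77) and B930025P03Rik (r = 0.71). Each was picked as the highest of 9624 values, so these r carry no test.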

How the data were processed

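Liver mRNA of single mice was sequenced from paired-end directional libraries, per the labels' protocols. The submitters' processing notes name STAR, the build mm10, R 4.05 and limma. Which program counted the reads, and with which strand setting, is not given in the sources used here. The deposited numbers were taken as estimated counts (expected counts) for each gene without normalization, since 2 rows held values that were not whole. Those 2 were left out, and every number used was whole. Of 35504 rows 23993 were intact. The other rows left out, in which a description split at a comma had moved the counts or that began with a 1, which cannot be told from this, were not used.

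Counts were fitted with edgeR 4.0.16 in R 4.3.3. The filter filterByExpr kept 10207 genes, with 99.95% of the counts in intact rows. The fit used TMM, 1 mean per group over 20 libraries, quasi-likelihood tests of 7 contrasts, Benjamini-Hochberg adjustment and a threshold of 0.05. Each SE belongs to a fitted log2 fold change. Symbols, positions and exon lengths (union of annotated exons) are from GENCODE vM21 (GRCm38). The steps were tested on simulated counts. Alternatives used DESeq2 1.42.0, limma 3.58.1, other scalings and filters, and left out libraries. The design had assumed counts. The 9 genes and all lists were chosen with earlier results of these data known. Genes named were the 9, a fixed panel, up to 3 called members of each list in each direction by smallest adjusted p (fold changes of running on uncalled genes are given by their smallest adjusted p), the members of counts of 5 or fewer, and the 2 genes most like each of the 9. A called gene of the lipase list is not reported here.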

Additional observations from a re-analysis of the deposited data

Results flagged for a closer look

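Within groups of 5 mice, 6 of 36 sets of values held a mouse far from the other 4, judged by its gap to the nearest mouse against the range of the group. The cut-off is passed by about 1 in 20 sets where values are normal. CPM were not transformed here and the 36 sets come from the same 20 mice, so that rate need not apply. Fgf21 reached 34.7 CPM in Con.Sed replicate 2 and 14.8 CPM in Con.VWR replicate 3, each well above the rest of its group. Gdf15 reached 282 CPM in Con.Sed replicate 4. Angptl4 reached 306 CPM in Con.VWR replicate 5. Igfbp1 in OC.Sed replicate 1, at 116 CPM, and Igfbp2 in OC.Sed replicate 5, at 331 CPM, lay below the rest of their groups.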

How the results depend on the processing

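Of 400 counts of called genes recomputed under the alternatives, 376 stayed at the same value or within 1.5 times. These include counts of 0 that stayed at 0 in the running comparisons and the interaction, where the main fit called 0 genes. The 376 is therefore not a measure of how stable the OC counts alone were. In running mice the OC effect covered 5 of the 9 genes in DESeq2 and 1 without the 3 libraries with Mb, with 0 to 5 when single libraries were left out, and over all genes 2224 in limma voom with sample weights and 817 to 1679 when single libraries were left out, the lowest without OC.VWR replicate 1, and 835 without OC.VWR replicate 3. In sedentary mice the count of all genes was 998 (without OC.Sed replicate 1) to 1794 when single libraries were left out. With library totals as the only scaling 1712 genes were called higher and 360 lower in sedentary mice. Where edgeR called 0 genes, DESeq2 called 42 for running on vehicle, 1 on OC, 2 averaged over diet and 119 in the interaction (1 of the 9 genes), limma voom with sample weights 4 in the interaction, and leaving out single libraries gave 0 to 1, 0 to 1 and 0 to 2 for running on OC, running averaged over diet and the interaction. Under scaling by library totals alone, the share of calls that were higher moved from 55.9% to 82.6% in sedentary mice, from 53.9% to 80.6% in running mice and from 51.8% to 81.0% averaged, with a median of all genes of 0.10, 0.12 and 0.11.

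The calls of Fgf21, Enho and Igfbp2 in sedentary mice, and of these with Gdf15 averaged over activity, were kept under every alternative run. Signs that turned were all of uncalled values, as log2 fold changes. Inhbe in sedentary mice was 0.0133 with library totals, 0.0371 without the libraries with Mb and -0.27 to 0.068 with single libraries left out. Angptl8 in running mice was -0.13 in limma voom, -0.0393 with sample weights and -0.42 to 0.53 with single libraries left out, and in sedentary mice -0.42 to 1.04. Left-out libraries gave -0.0375 to 0.46 for Fst in sedentary and -0.54 to 0.0542 for Angptl4 in running mice. The Fgf21 interaction was -0.0115 in limma voom, -0.39 with sample weights and -0.52 to 0.55 with left-out libraries, and that of Gdf15 -0.0631 to 1.17. Averaged, Igfbp4 was -0.004 with RLE, -0.0041 in DESeq2, -0.0459 with sample weights, -0.0436 without the libraries with Mb and -0.0352 to 0.0332 with left-out libraries, Trib3 -0.11 to 0.0948, and Foxo1 0.0632 with library totals and -0.14 to 0.0055 with left-out libraries. The cause was not tested. Of 39 called related genes, 28 kept their call under every alternative. Of 28 alternatives, calls were lost for Per3 under 18, Tef under 20, Creb3l3 under 14, Irs2 under 8, Irs1 under 5, Pcsk6 under 7 and Txnip under 1, most by leaving out 1 library. No paired analysis was possible because the replicate numbers only name the mice. Low counts limit Fst and Fgf21.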
